A study of Mus musculus with 27 samples.

Results

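The stripped aorta experiment compared RNA from mice labelled TKO with RNA from mice labelled Cre, in aortas labelled as stripped. Its members are the 6 libraries of that table, 4 Cre (replicates 1 to 4) and 2 TKO (replicates 1 and 2), of 27 samples in the series. They were chosen by the genotype and tissue fields of their labels. The label of strain background is C57BL/6 for all 6, and angiotensin II (Ang II) had been infused for 28 days in each. The labels give no age, define neither Cre nor TKO, and name neither the promoter behind Cre nor the cells meant to lack a gene. The title of the study names KLF10, IL-9 and CD4+ T cells in perivascular fibrosis. The titles of these 6 samples carry the word nonstripped, whereas their source and tissue fields say stripped, and the latter were followed. Nothing in the labels tells which tissue was removed by stripping, or that the replicates are separate animals. The p-values therefore measure the spread between these samples. A set of 3 Cre and 3 TKO non-stripped aortas with the same infusion, counted in a table of their own, serves below only to show where stripped aorta differed.

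Ang II constricts arteries and, given for weeks, raises blood pressure and thickens and scars the vessel wall. The aorta has an endothelial lining, a muscular media rich in elastin and an adventitia of fibroblasts, nerves and immune cells. It is wrapped in perivascular fat, which in rodents around the thoracic aorta resembles brown fat. KLF10 is a transcription factor that TGF-beta switches on quickly, and IL-9 is a cytokine made by a subset of helper T cells. Fat cells store triglyceride in droplets, release fatty acids from them through a chain of lipases, and burn fatty acids in mitochondria by beta-oxidation. Brown fat cells can spend that energy as heat through the uncoupling protein UCP1.

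The 6 libraries held 27029228 to 35936774 counts, and 3 counts, the limit that a count of 0 allows, corresponded to 0.0809 to 0.111 CPM (counts scaled to a common library size with TMM factors). Acta2, smooth muscle actin, was at 2286 to 4333 CPM in the stripped libraries and at 50.7 to 277 CPM in the non-stripped ones. Ucp1 was at 21.9 to 402.004 CPM in stripped and at 4312 to 7112 CPM in non-stripped libraries, and mitochondrially encoded genes took 3.16% to 9.11% and 16.9% to 21.0% of counts. The stripped libraries thus held more smooth muscle RNA and less fat RNA than the non-stripped ones, but fat markers were present in all 6 (Adipoq, the fat hormone adiponectin, at 111 to 399 CPM). These levels come from tables scaled separately. The labels name no batch.

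Several libraries stood apart from the others in genes of other tissues. TKO replicate 2 stood far above the others in some genes of developing T cells. Rag1, which cuts antigen receptor genes, was at 17.7 CPM there and at 0 to 1.21 CPM in the other 5. Dntt, which adds bases at the cuts, was at 17.4 CPM against 0.0540 to 0.466 CPM. Cre replicate 3 alone carried much atrial RNA, with Nppa, the atrial natriuretic peptide gene, at 2549 CPM against 0.324 to 4.71 CPM in the other 5. Summed over 11 listed cardiac genes, the level was 5040 CPM there, 919 CPM in Cre replicate 4 and 84.3 to 316 CPM in the rest. Cre replicate 1 was low in fat genes, with Ucp1 at 21.9 CPM against 97.3 to 109.6 CPM in Cre replicates 2 to 4. Medians without 1 of these libraries are given beside some of the lists.

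Below, changes are log2 fold changes of TKO over Cre, and a list's median is the median of these over its tested genes. The ± after a change is a standard error back-calculated from the test. It is the size of the change divided by the square root of the F statistic. It therefore restates the unadjusted p and is no separate measure of precision. Adjusted p-values are those of edgeR's quasi-likelihood test with Benjamini-Hochberg adjustment over all genes tested. A number alone in parentheses after a fold change is that adjusted p. A gene is called separated where both TKO libraries lay above, or both below, all 4 Cre libraries.

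The gene named by the study was looked at first. Klf10 (chr15:38291463-38300706 on GRCm38) was at 44.4, 62.8, 29.7 and 43.7 CPM in the 4 Cre libraries and at 37.3 and 20.6 CPM in the 2 TKO libraries. The groups overlapped, with TKO replicate 1 inside the Cre range and TKO replicate 2 below it. Its log2 fold change was −0.64 ± 0.33 (adjusted p = 0.436), and it ran from −1.13 to −0.28 when each library was left out in turn. In non-stripped aorta Klf10 was at 40.7, 50.1 and 65.7 CPM in Cre and at 41.3, 35.4 and 0 CPM in TKO, so that 1 TKO library there had no count of it. Because the labels do not say in which cells TKO applies, these values do not test the labels. Il9 had 0 counts in all 6 libraries. Il9r, the IL-9 receptor gene, had 2, 6, 9 and 7 counts in Cre and 4 and 15 in TKO, too few for the filter on low counts. Of 14 Kruppel-like factor genes 13 were tested, 9 were positive and none passed (of all genes 0.0240% did). Klf11, the closest relative of Klf10, was at 23.6, 22.1, 19.2 and 17.7 CPM in Cre and at 48.7 and 25.1 CPM in TKO, with both TKO libraries above the Cre range (0.84 ± 0.25, adjusted p = 0.246). Klf15, a factor tied to fasting metabolism, had a log2 fold change of 0.79 ± 0.26 (adjusted p = 0.272).

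Of 16688 genes tested, edgeR's quasi-likelihood test called 2 higher (0.0120%) and 2 lower (0.0120%) in TKO at an adjusted p under 0.05, together 0.0240% of genes. Of all genes tested 50.2% had a log2 fold change above 0, which is the background for the counts of positive genes below. Slc7a11 and Gm14150 rose, and Unc5b and Myrf fell. At an unadjusted p under 0.05 there were 1232 genes higher (7.38%) and 1063 lower (6.37%), 2295 (13.8%) in all. DESeq2 called 536 genes (3.24% of 16564), 1.85% higher and 1.38% lower, and edgeR fitted jointly with the non-stripped libraries called 138 (0.789%). Both included the 4 genes. Because bulk RNA mixes cell types, fewer cells of a type and less RNA per cell cannot be told apart in any of the following results. Both TKO libraries lay above all 4 Cre libraries for 1998 genes (12.0% of those tested) and below all of them for 1939 (11.6%), and these shares are the background for the counts of separated genes given below. Among the separated genes with a log2 fold change of at least 1 in size, 397 were higher and 250 lower in TKO.

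**Figure D1:**
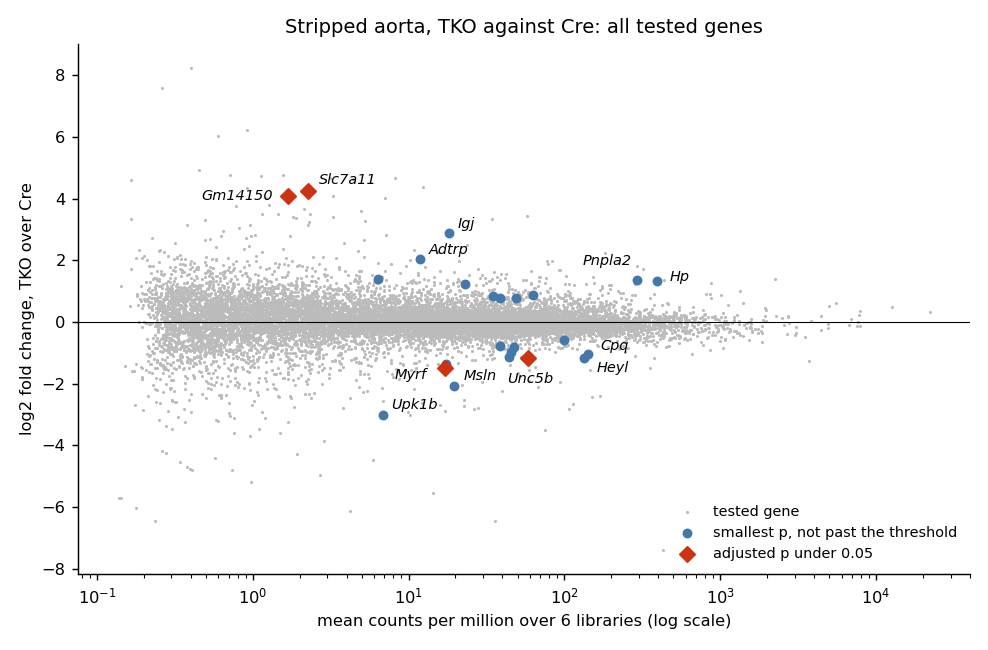
Each point is 1 of 16688 genes tested in stripped aorta, with its mean CPM over 6 libraries on a log axis against its log2 fold change, TKO over Cre. Diamonds mark the 4 genes that passed and blue circles the genes with the smallest p by the naming rule that did not; Slc7a11 and Gm14150 lie near 4 at low levels and Unc5b and Myrf lie below −1.

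Slc7a11 encodes the exchanger that brings cystine into the cell in return for glutamate, the first step of making glutathione. It was at 0.186, 0.433, 0.420 and 0.270 CPM in Cre, from 6, 13, 12 and 10 counts, and at 5.67 and 6.69 CPM in TKO, from 153 and 200 counts. Every Cre library was thus near the detection limit and both TKO libraries well above it. The fold was 18.8 (log2 4.24 ± 0.35, adjusted p = 0.0209). Leaving out single libraries gave log2 values of 4.04 to 4.40 and adjusted p of 0.0370 to 0.107, and the call was lost without Cre replicate 2, Cre replicate 3 or TKO replicate 2.

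Slc7a11 lies at chr3:49892526-50443614 on the minus strand (GRCm38). It is a known target of 2 stress programmes, the antioxidant response run by NRF2 and the amino acid response run by ATF4, so the 250 bases before its start (RefSeq, GRCm38.p6, chr3:50443614-50443863, minus strand, 5′ to 3′) were searched for a motif of each on both strands. They are shown with those before Unc5b (chr10:60831582-60831831, minus strand), the called gene of opposite direction that also has an entry. The capitals mark the matches to the amino acid response motif.
Slc7a11: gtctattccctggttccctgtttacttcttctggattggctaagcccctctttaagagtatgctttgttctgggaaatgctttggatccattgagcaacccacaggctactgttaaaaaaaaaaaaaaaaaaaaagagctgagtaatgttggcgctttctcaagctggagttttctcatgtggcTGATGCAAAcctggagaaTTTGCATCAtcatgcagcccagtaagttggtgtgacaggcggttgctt
Unc5b: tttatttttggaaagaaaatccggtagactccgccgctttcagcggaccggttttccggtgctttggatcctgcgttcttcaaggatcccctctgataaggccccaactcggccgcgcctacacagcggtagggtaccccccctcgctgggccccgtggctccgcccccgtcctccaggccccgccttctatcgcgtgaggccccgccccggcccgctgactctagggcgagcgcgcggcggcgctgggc
The Slc7a11 window held 2 matches to TGATGNAAN, the amino acid response element. One, TGATGCAAA, lay 66 to 58 bases before the start and the other, TTTGCATCA, which matches on the opposite strand, 48 to 40 bases before it. Of 32851 promoter windows of this length 3.44% held that motif. Neither window held TGACNNNGC, the core of the antioxidant response element, found in 10.2% of windows. A match describes the letters and does not show a site in use.

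No other gene listed for these programmes passed. Of 18 antioxidant genes tested, Slc7a11 included, 9 were positive and 9 negative with a median log2 fold change of 0.00 (all genes 0.00), and 1 was called. The glutathione peroxidase gene Gpx4 had a log2 fold change of 0.33 ± 0.13 (adjusted p = 0.327), the sulfiredoxin gene Srxn1 at −0.29 ± 0.11 (0.316) and the thioredoxin reductase gene Txnrd1 at −0.24 ± 0.11 (0.393). Of 20 amino acid response genes 9 were positive, 2 were separated higher and 3 lower, the median was −0.11 (0.11 without TKO replicate 1) and none was called, while DESeq2 called 2 higher and 1 lower. Asns, asparagine synthetase, was at 15.9, 18.8, 16.2 and 23.5 CPM in Cre and at 31.2 and 35.9 CPM in TKO (log2 0.85 ± 0.17, adjusted p = 0.156), separated but not past the threshold. Ddit4, an inhibitor of the growth kinase mTORC1, was the other gene separated higher, at 37.8, 43.6, 33.2 and 50.4 CPM in Cre and at 79.2 and 223 CPM in TKO (log2 1.87 ± 0.35, adjusted p = 0.146; DESeq2 8.04e-06). Atf4 itself had a log2 fold change of −0.27 ± 0.11 (adjusted p = 0.327) and the arginine carrier gene Slc7a1 at −0.74 ± 0.21 (0.241), both lower in each TKO library than in every Cre library. Slc3a2, the partner chain of SLC7A11 in the exchanger, was at 88.8, 75.4, 78.1 and 78.5 CPM in Cre and at 85.2 and 94.3 CPM in TKO (log2 0.16 ± 0.10, adjusted p = 0.518).

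Gm14150 is annotated as a processed pseudogene at chr2:151458956-151460309 (GENCODE vM21, GRCm38), so its reads may belong to the gene it was copied from. It was at 0.248, 0.366, 0.175 and 0.270 CPM in Cre and at 4.49 and 4.55 CPM in TKO. The groups were far apart, from 8, 11, 5 and 10 counts in Cre and 121 and 136 in TKO (log2 4.07 ± 0.33, adjusted p = 0.0209; 0.0380 to 0.107 without single libraries). The call was lost without Cre replicate 1, 2 or 3 or without TKO replicate 2.

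Unc5b encodes a receptor for the guidance protein netrin on vessels. Unc5b fell from 67.9, 70.3, 76.4 and 74.1 CPM in Cre to 33.1 and 31.1 CPM in TKO. The 4 Cre libraries spanned a narrow range and both TKO libraries lay under it by more than the spread of either group (72.2 ± 3.80 CPM, SD, n = 4, and 32.1 ± 1.39 CPM, SD, n = 2; log2 −1.17 ± 0.09, adjusted p = 0.0209, 0.0380 to 0.107 without single libraries). The call was lost without Cre replicate 2, Cre replicate 3 or TKO replicate 2. The gene lies at chr10:60762593-60831581.

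Other genes of guidance signalling were listed beside Unc5b. Of 24 tested, 11 were positive, 6 lay below and 2 above the Cre range, and the median was −0.05. Among ligands, Slit3, which binds ROBO receptors, was at 391, 213, 376 and 185 CPM in Cre and at 153 and 144 CPM in TKO (log2 −0.97 ± 0.33, adjusted p = 0.280). Sema3c, a semaphorin, had a log2 fold change of −0.34 ± 0.11 (adjusted p = 0.273) and Ntn1, netrin 1, at −0.44 ± 0.19 (0.365). Among receptors, Neo1, another netrin receptor, had a log2 fold change of −0.37 ± 0.14 (adjusted p = 0.326) and the semaphorin receptor Plxna1 at −0.35 ± 0.13 (0.308). Robo4, a ROBO of endothelium, was at 7.38, 19.4, 9.42 and 17.8 CPM in Cre and at 19.8 and 51.1 CPM in TKO (log2 1.39 ± 0.47, adjusted p = 0.275), and its value was 0.55 without TKO replicate 2. Of its relatives, Unc5c had a log2 fold change of −0.14 ± 0.30 (adjusted p = 0.868) and Unc5a at 0.26 ± 0.31 (0.739).

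Myrf encodes myelin regulatory factor, a membrane-bound protein that cuts itself to release a transcription factor, best known for myelination by oligodendrocytes. Myrf fell from 21.4, 20.2, 23.9 and 22.2 CPM in Cre to 7.30 and 8.16 CPM in TKO (log2 −1.50 ± 0.13, adjusted p = 0.0209; 0.0380 to 0.107 without single libraries). The call was lost without any 1 of the libraries except Cre replicate 4. The gene lies at chr19:10208272-10240748. The aorta has no oligodendrocytes but its nerves have Schwann cells, and their genes lay on the other side: of 16 Schwann and myelin genes tested 14 were positive, 5 were separated higher, none was separated lower, and the median was 1.07 (0.66 without TKO replicate 2). Cdh19, a cadherin of Schwann cells, was at 11.0, 10.6, 10.6 and 17.6 CPM in Cre and at 25.4 and 30.9 CPM in TKO (log2 1.17 ± 0.23, adjusted p = 0.151). Mbp, myelin basic protein, overlapped between the groups at 49.0, 32.3, 20.7 and 65.9 CPM in Cre and 58.6 and 142 CPM in TKO. Mesothelial cells, which cover the surface of organs, also make Myrf, and their markers are described below.

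**Figure D2:**
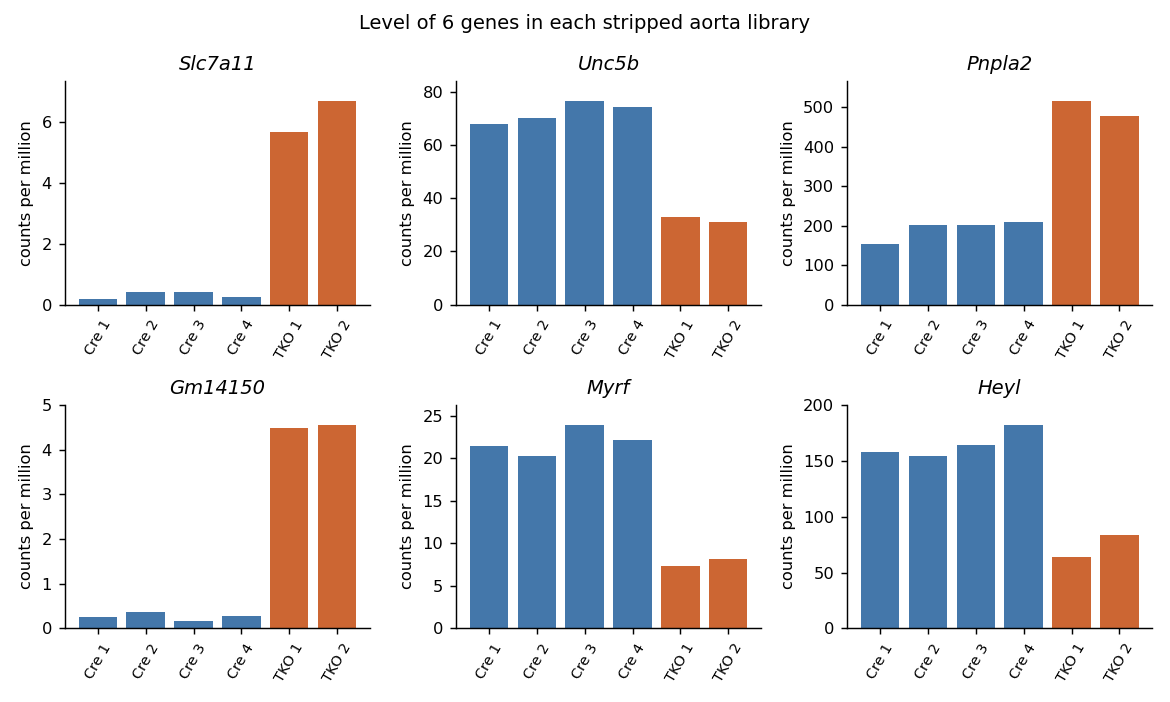
Bars give CPM in each of the 4 Cre (blue) and 2 TKO (orange) stripped aorta libraries, on axes from 0, for the 4 genes that passed (Slc7a11, Gm14150, Unc5b, Myrf) and for Pnpla2 and Heyl, which did not. In each panel both TKO libraries lie outside the range of the Cre libraries.

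Heyl, a target of Notch receptors in smooth muscle, was at 158, 154, 164 and 182 CPM in Cre and at 63.6 and 83.4 CPM in TKO. The groups were separated and the fold change was −1.16 ± 0.14, but the adjusted p of 0.0718 missed the threshold. The rest of the Notch pathway was divided: of 26 genes tested 13 were positive, the median was 0.01, 2 lay above and 2 below the Cre range. Of the other target genes, Hey2, at −0.40 ± 0.14 (adjusted p = 0.275), and Hes1, at −0.64 ± 0.42 (0.537), had negative values, and Hey1, at 0.35 ± 0.17 (0.432), and Nrarp, at 0.75 ± 0.55 (0.589), positive ones. The smooth muscle receptor gene Notch3 had a log2 fold change of −0.44 ± 0.20 (0.399). Notch4, an endothelial receptor gene, had one of 0.97 ± 0.40 (0.14 without TKO replicate 2). Mfng, which adds sugars to Notch, was at 6.91, 11.4, 9.28 and 12.7 CPM in Cre and at 20.2 and 20.5 CPM in TKO (log2 1.01 ± 0.23, adjusted p = 0.191).

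The remaining genes with the smallest p did not pass. On the higher side these were Igj, the joining chain of secreted antibodies, Bnip3, which marks mitochondria for removal, Hp, the haemoglobin-binding protein haptoglobin that fat also makes, Retsat, a retinol saturase of fat cells, Adtrp, a lipid esterase, Adam12, a metalloprotease of injured tissue, Cib2, a calcium-binding protein, and Fam214a. Hp was at 229.6, 258, 240.1 and 314 CPM in Cre and at 723 and 587 CPM in TKO (log2 1.33 ± 0.16, adjusted p = 0.0718). Adtrp was at 3.84, 6.92, 6.83 and 5.75 CPM in Cre and at 29.3 and 18.3 CPM in TKO (log2 2.03 ± 0.27, adjusted p = 0.0920). Both TKO libraries were above every Cre library for each, and for Adam12 they read nearly alike, at 10.8 and 10.8 CPM against 3.32, 4.53, 4.17 and 4.56 CPM in Cre (log2 1.38 ± 0.18, adjusted p = 0.0920). Fam214a (0.78 ± 0.09), Cib2 (1.24 ± 0.15), Retsat (0.84 ± 0.11) and Bnip3 (0.88 ± 0.10) were each at an adjusted p of 0.0718. DESeq2 called each of these 8 genes, at adjusted p of 4.76e-06 or less.

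On the lower side were 2 mesothelial genes (below) and Gpr137b, a lysosomal membrane protein, Hpgd, which breaks down prostaglandins, Cpq, a carboxypeptidase, Col6a6, a chain of collagen VI, Dnajb5, a heat shock cochaperone, Alpl, the phosphatase that clears the calcification inhibitor pyrophosphate, and Arhgef17, an exchange factor for small GTPases. Alpl was at 22.5, 22.6, 25.5 and 16.4 CPM in Cre and at 7.86 and 9.20 CPM in TKO (log2 −1.35 ± 0.20, adjusted p = 0.101). Col6a6 was at 49.0, 66.6, 47.5 and 54.1 CPM in Cre and at 26.4 and 22.8 CPM in TKO (log2 −1.14 ± 0.16, adjusted p = 0.101). Hpgd was at 47.2, 42.5, 46.7 and 42.8 CPM in Cre and at 27.1 and 24.8 CPM in TKO (log2 −0.79 ± 0.10, adjusted p = 0.0718). The 2 groups were separated in all of these. Gpr137b had a log2 fold change of −0.96 ± 0.12 (adjusted p = 0.0718), Dnajb5 at −0.81 ± 0.12 (0.101) and Arhgef17, with the smallest fold of the group, at −0.59 ± 0.09 (0.102).

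Genes of fat storage and release were higher in both TKO libraries than in any Cre library in most cases, though none was called by edgeR. Of 17 lipolysis and lipid droplet genes tested, 16 were positive, 13 were separated higher and 1 lower, against the 12.0% and 11.6% of all genes, and the median was 1.22 (1.09 without Cre replicate 1 and 0.82 without TKO replicate 1). DESeq2 called 10 of them higher. Pnpla2, the lipase that takes the first fatty acid off triglyceride, was at 153, 201, 202 and 209 CPM in Cre and at 515 and 477 CPM in TKO (log2 1.37 ± 0.14, adjusted p = 0.0527). Lipe, the hormone-sensitive lipase that takes the second, was at 67.5, 95.7, 90.5 and 126 CPM in Cre and at 244 and 199 CPM in TKO (log2 1.22 ± 0.22, adjusted p = 0.138). Lpl, the lipase that feeds fatty acids from blood to tissue, was at 429, 569.9, 631 and 749 CPM in Cre and at 1482 and 1351 CPM in TKO (log2 1.25 ± 0.21, adjusted p = 0.113). For these 3 lipases the lowest TKO library was well above the highest Cre library, and the lowest Cre library was replicate 1 each time. Plin5, which ties droplets to mitochondria, was at 3.01, 5.72, 5.67 and 6.48 CPM in Cre and at 15.3 and 21.2 CPM in TKO (log2 1.81 ± 0.29, adjusted p = 0.111). Angptl4, which restrains LPL, was at 31.2, 35.3, 62.7 and 46.8 CPM in Cre and at 107 and 136 CPM in TKO (log2 1.47 ± 0.26, adjusted p = 0.138). Cidec, a droplet fusion protein, had both TKO libraries above Cre but far from each other, at 362 and 169.8 CPM against 69.3, 103, 106 and 106 CPM (log2 1.47 ± 0.29, adjusted p = 0.155). Hilpda, a lipase inhibitor, was the member below the Cre range, at −0.23 ± 0.17 (adjusted p = 0.585).

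Genes of fatty acid oxidation lay higher as well. All 22 of its tested genes were positive, 20 were separated higher, the median was 0.75, and DESeq2 called 17. The mean log2 CPM of the list was 5.79, 6.22, 6.23 and 6.25 in Cre and 6.82 and 6.95 in TKO. Cpt2, which restores acyl-CoA inside the mitochondrion, was at 41.4, 37.2, 38.0 and 41.1 CPM in Cre and at 71.4 and 64.2 CPM in TKO (log2 0.78 ± 0.09, adjusted p = 0.0718). Its partner carrier gene Slc25a20 was at 34.5, 52.3, 48.9 and 44.5 CPM in Cre and at 84.5 and 85.1 CPM in TKO (log2 0.91 ± 0.16, adjusted p = 0.123). The 4 Cre libraries stayed together in Cpt2 but ran from 34.5 to 52.3 CPM in Slc25a20. In both genes the 2 TKO libraries lay well above them. Of the enzymes of the cycle itself, Acadvl, for very long chains, had a log2 fold change of 0.77 ± 0.11 (adjusted p = 0.101) and the last one, Acaa2, at 1.16 ± 0.20 (0.138). Cpt1a, the regulated entry enzyme outside brown fat and muscle, had the smallest value, 0.27 ± 0.22 (adjusted p = 0.629), with overlapping groups. Without Cre replicate 1, which lay under the rest of its group, the list's median came to 0.62, and leaving out TKO replicate 2 gave 0.60.

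Genes induced by fasting through the receptor PPAR alpha had a median of 0.91, with 8 of 11 tested genes separated higher, 1 lower and none called. Ucp2, a carrier of the inner mitochondrial membrane, was at 131, 100.049, 118 and 98.3 CPM in Cre and at 218 and 203 CPM in TKO (log2 0.91 ± 0.14, adjusted p = 0.102). Slc25a42, a coenzyme A carrier, was at 16.6, 16.7, 16.7 and 16.3 CPM in Cre and at 28.1 and 24.4 CPM in TKO (log2 0.66 ± 0.10, adjusted p = 0.104), so that the 4 Cre libraries read nearly alike. Pdk4, which stops pyruvate entering the mitochondrion's cycle, was at 48.4, 55.0, 104 and 50.9 CPM in Cre and at 125 and 234 CPM in TKO (log2 1.48 ± 0.35, adjusted p = 0.202), with Cre replicate 3 close to the lower TKO library. Ppara itself was at 1.09, 1.10, 1.19 and 0.702 CPM in Cre and at 2.45 and 2.31 CPM in TKO (log2 1.22 ± 0.31, adjusted p = 0.212). Vnn1, a pantetheinase, was the member below the Cre range (−0.83 ± 0.40, adjusted p = 0.419).

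Of 18 lipid synthesis genes tested, 16 were positive, 8 were separated higher and none lower, none was called, and the median was 0.87 (0.71 without Cre replicate 1). Pck1, which makes the glycerol backbone of triglyceride in fat, was at 85.3, 145, 233 and 172 CPM in Cre and at 695 and 417 CPM in TKO (log2 1.81 ± 0.36, adjusted p = 0.155). Dgat2, an enzyme of the last step, had a log2 fold change of 1.19 ± 0.33 (adjusted p = 0.222) and Lpin1, of the step before, at 0.93 ± 0.16 (0.129), both separated higher. Gpam, of the first step, overlapped between the groups at 0.13 ± 0.35 (0.895). So did several genes of fatty acid synthesis: Fasn, fatty acid synthase, had a log2 fold change of 0.47 ± 0.52 (adjusted p = 0.723), Acly at 0.04 ± 0.49 (0.981), Acaca at 0.29 ± 0.39 (0.778) and their regulator Srebf1 at −0.07 ± 0.28 (0.933). Acacb, the mitochondrial form of acetyl-CoA carboxylase whose product restrains CPT1, was at 31.6, 42.4, 47.3 and 43.4 CPM in Cre and at 81.9 and 88.8 CPM in TKO (log2 1.05 ± 0.15, adjusted p = 0.101).

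Markers of fat cells as such were also higher. All 15 white fat genes tested were positive, 10 were separated higher and none was called, with a median of 0.78. Adipoq was at 111, 161, 155 and 235 CPM in Cre and at 399 and 271 CPM in TKO (log2 1.02 ± 0.28, adjusted p = 0.222), and Pparg, the master regulator of fat cells, at 18.0, 22.9, 24.4 and 31.4 CPM in Cre and at 37.4 and 62.7 CPM in TKO (log2 1.05 ± 0.25, adjusted p = 0.202). For both genes Cre replicate 4 came nearest to TKO. Among brown fat genes 12 of 15 were positive, 8 were separated higher and 2 lower, and the median was 0.74. Ucp1 was at 21.9, 99.2, 109.6 and 97.3 CPM in Cre and at 364 and 402.004 CPM in TKO (log2 2.22 ± 0.51, adjusted p = 0.191), and Otop1, a proton channel of brown fat, was at 4.00, 8.05, 6.69 and 9.42 CPM in Cre and at 20.8 and 20.0 CPM in TKO (log2 1.53 ± 0.29, adjusted p = 0.146). Zic1 and Prdm16, both transcription regulators, were the 2 separated lower. Zic1 was at 0.248, 0.699, 0.245 and 0.405 CPM in Cre and at 0.0741 and 0.134 CPM in TKO (log2 −1.89 ± 0.73, adjusted p = 0.326). Its value in TKO replicate 1 was under the level of 3 counts there (0.111 CPM). Prdm16 had a log2 fold change of −0.39 ± 0.15 (0.326). Dio2, the enzyme that activates thyroid hormone, had one of −0.83 ± 0.40 (0.412) with overlapping groups. Of the other regulators on the list, Ppargc1a had a log2 fold change of 0.63 ± 0.18 (adjusted p = 0.232) and was separated higher, and Ebf2, at 0.23 ± 0.24 (0.702), and Lhx8, at 0.44 ± 0.47 (0.710), overlapped between the groups. Without Cre replicate 1 the median was 0.65 for the white and 0.66 for the brown fat genes, and the log2 fold change of Ucp1 was 1.90. The part of fat content in these values was not tested.

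**Figure D3:**
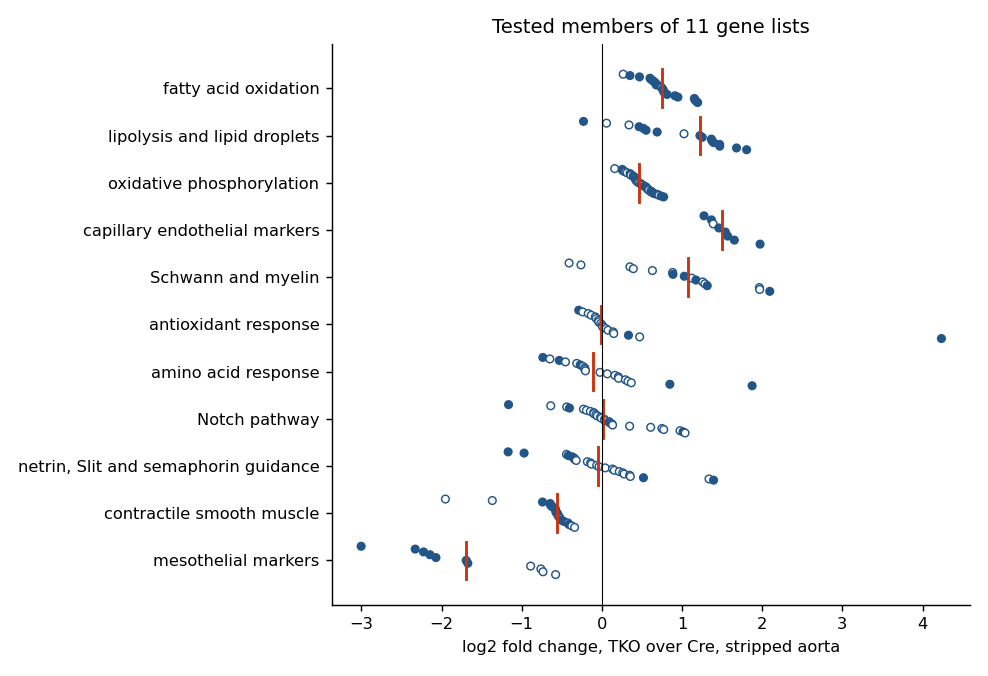
Each circle is a tested gene of 1 of 11 lists at its log2 fold change, TKO over Cre, in stripped aorta. Filled circles mark genes whose 2 groups do not overlap and red bars the list medians; the 22 fatty acid oxidation genes all lie right of 0 and the 11 mesothelial genes all left of it.

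Mitochondrial genes lay on the same side with smaller values. All 35 nuclear genes of oxidative phosphorylation were positive, 19 were separated higher, none was called, and the median was 0.46. Leaving out TKO replicate 2 gave 0.24, and leaving out TKO replicate 1 gave 0.69. Ndufv1, a core subunit of complex I, was at 91.9, 97.7, 99.0 and 115 CPM in Cre and at 136 and 181 CPM in TKO (log2 0.65 ± 0.14, adjusted p = 0.179). Cox4i1, of complex IV, was at 289.9, 309, 326 and 383 CPM in Cre and at 418 and 544 CPM in TKO (log2 0.56 ± 0.16, adjusted p = 0.232). In both genes TKO replicate 2 was the highest library, and TKO replicate 1 was close to Cre replicate 4. The 13 genes encoded in the mitochondrion were all positive but none was separated, and their median of 0.49 became −0.06 without TKO replicate 2. Of 12 genes of hypoxia and mitophagy 9 were positive, with a median of 0.28 (0.13 without TKO replicate 2). Bnip3 and Ndrg1 were the 2 separated higher, and Car9, a carbonic anhydrase, was separated lower (−0.62 ± 0.31, adjusted p = 0.423). Of 14 glycolysis genes 8 were positive (median 0.06).

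**Figure D4:**
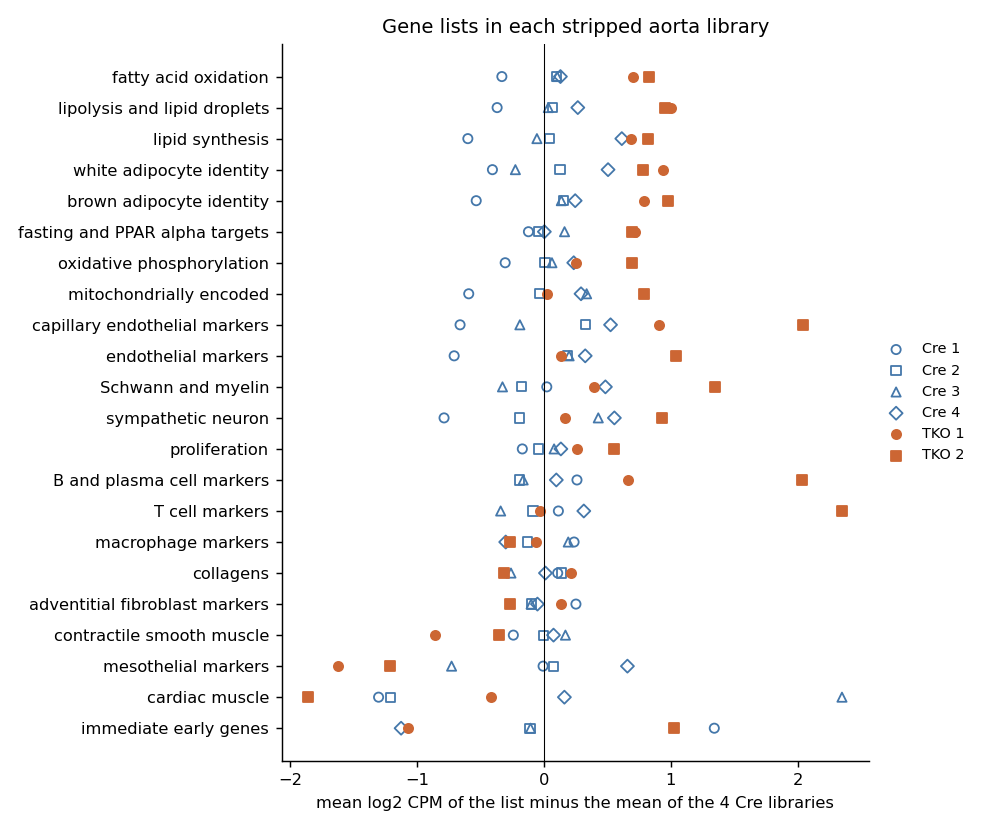
For 22 gene lists, each symbol gives the mean log2 CPM of the tested members in 1 library minus the mean of the 4 Cre libraries; open symbols are Cre replicates 1 to 4 and filled symbols TKO replicates 1 and 2. Both TKO libraries lie to the right of every Cre library for the fat and fatty acid oxidation lists. They lie to the left for contractile and mesothelial genes. T cell markers are high in TKO replicate 2 alone, and cardiac genes are highest in Cre replicate 3, followed by Cre replicate 4.

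Contractile genes of smooth muscle, the main cell of the media, lay on the opposite side. All 20 tested were negative, 13 were separated lower against 11.6% of all genes, none was called, and the median was −0.56. Leaving out TKO replicate 1 gave −0.26, and leaving out TKO replicate 2 gave −0.94. The mean log2 CPM was 7.72, 7.96, 8.13 and 8.04 in Cre and 7.10 and 7.61 in TKO, so TKO replicate 1 was the lowest library. Acta2 was at 3450.2, 3970.3, 3761 and 4333 CPM in Cre and at 2286 and 3299.7 CPM in TKO (log2 −0.47 ± 0.19, adjusted p = 0.343). Tagln, an actin-binding protein of smooth muscle, was at 756, 894, 905 and 841 CPM in Cre and at 447 and 642 CPM in TKO (log2 −0.64 ± 0.17, adjusted p = 0.221). Smtn, smoothelin, was at 475, 531, 382 and 409.7 CPM in Cre and at 274 and 301 CPM in TKO (log2 −0.64 ± 0.16, adjusted p = 0.209). The coactivator of these genes, Myocd, had a log2 fold change of −0.58 ± 0.24 (adjusted p = 0.349). Summed CPM of the fat-cell list ran from 1637 to 3128 in Cre and was 5203 and 3282 in TKO, whereas that of the contractile list was 11082 to 12582 in Cre and 6550.2 and 9967 in TKO. The part of tissue composition in either was not tested.

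Genes through which vessels receive or make vasoactive signals showed no common direction, with 12 of 27 positive, a median of −0.11 (−0.02 without TKO replicate 1, −0.35 without replicate 2) and none called. Agtr1a, the main rodent Ang II receptor gene, was at 2.82, 3.26, 7.14 and 9.52 CPM in Cre and at 4.19 and 7.99 CPM in TKO (log2 0.10 ± 0.53, adjusted p = 0.951). Agtr2, the other Ang II receptor gene, was at 0.248, 0.0998, 0.245 and 0.351 CPM in Cre and at 0.408 and 0.569 CPM in TKO (log2 1.03 ± 0.56, adjusted p = 0.464). Its value in Cre replicate 2 was at the level of 3 counts there, so the size of its fold is uncertain. The thromboxane receptor gene Tbxa2r was at 22.1, 20.9, 19.1 and 22.1 CPM in Cre and at 15.2 and 12.7 CPM in TKO (log2 −0.60 ± 0.13, adjusted p = 0.173), and the prostacyclin receptor gene Ptgir at −0.63 ± 0.20 (0.260). These 2 and Hpgd (above) were the 3 genes of the list separated lower, and 4 were separated higher, among them Agtr2 and Adra1a. Adra1a, an adrenaline receptor gene, was at 0.651, 1.56, 2.00 and 1.30 CPM in Cre and at 3.08 and 4.58 CPM in TKO (log2 1.48 ± 0.42, adjusted p = 0.238). Of 8 pericyte markers 2 were positive (median −0.12, −0.49 without TKO replicate 1, −0.01 without replicate 2), with Cspg4 at −0.61 ± 0.18 (adjusted p = 0.247) and Rgs5 at 0.00 ± 0.16 (0.994).

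The matrix genes that fibrosis is built from held no called gene. Of 19 collagen genes 5 were positive, 3 were separated lower and none higher, none was called, and the median of −0.11 turned to 0.17 when TKO replicate 2 was left out and to −0.39 when TKO replicate 1 was. Col1a1, of the main fibrillar collagen, was at 9184, 6164, 4272 and 7181 CPM in Cre and at 9596 and 4687 CPM in TKO (log2 0.09 ± 0.37, adjusted p = 0.936), and Col3a1 at 8229, 6419.6, 5499 and 7019.6 CPM in Cre and at 7568 and 5178 CPM in TKO (log2 −0.09 ± 0.23, adjusted p = 0.888). In both genes TKO replicate 1 was higher than TKO replicate 2 and the groups overlapped. The basement membrane collagens Col4a1 (−0.41 ± 0.17, adjusted p = 0.343), Col4a2 (−0.37 ± 0.14, 0.314) and Col18a1 (−0.57 ± 0.21, 0.300) were the 3 separated lower.

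Of 38 other matrix and crosslinking genes, 12 were positive, 3 were separated higher and 6 lower, and the median was −0.16 (−0.33 without TKO replicate 1, 0.01 without replicate 2). Eln, elastin, was at 3399.9, 2659, 5780.0 and 6473 CPM in Cre and at 1332 and 2503 CPM in TKO (log2 −1.26 ± 0.43, adjusted p = 0.285), with TKO replicate 2 just under the lowest Cre library. Thbs1, thrombospondin 1, which activates latent TGF-beta, was at 143, 186, 171 and 199 CPM in Cre and at 298 and 368 CPM in TKO (log2 0.93 ± 0.15, adjusted p = 0.117). Spp1, osteopontin, was at 12.8, 11.2, 17.3 and 13.4 CPM in Cre and at 33.4 and 22.9 CPM in TKO (log2 1.04 ± 0.21, adjusted p = 0.154). Both were separated higher, and Acan, the cartilage proteoglycan aggrecan, was too (2.01 ± 0.56, adjusted p = 0.226). Of 24 TGF-beta pathway genes 8 were positive, none was called and the median was −0.13 (−0.24 without TKO replicate 1, −0.05 without replicate 2). Ltbp1, which holds latent TGF-beta in the matrix, was at 629, 597, 679 and 516 CPM in Cre and at 424 and 415 CPM in TKO (log2 −0.53 ± 0.14, adjusted p = 0.213). Tgfb1 had a log2 fold change of 0.24 ± 0.14 (adjusted p = 0.490) and the inhibitor gene Smad7 one of −0.71 ± 0.30 (0.355). Of 12 adventitial fibroblast markers 5 were positive (median −0.06, −0.24 without TKO replicate 1, 0.14 without replicate 2).

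Mesothelial genes were low in both TKO libraries. All 11 tested were negative, 7 were separated lower, DESeq2 called those 7, edgeR called none, and the median was −1.69. Upk1b, an uroplakin, was at 7.87, 9.62, 6.27 and 14.7 CPM in Cre and at 1.22 and 1.17 CPM in TKO (log2 −3.00 ± 0.40, adjusted p = 0.0920). Msln, mesothelin, was at 29.5, 22.9, 17.1 and 35.8 CPM in Cre and at 6.08 and 6.46 CPM in TKO (log2 −2.07 ± 0.30, adjusted p = 0.101). Upk3b, another uroplakin, was at 55.4, 49.3, 30.0 and 80.4 CPM in Cre and at 10.8 and 12.3 CPM in TKO (log2 −2.22 ± 0.37, adjusted p = 0.117). In each gene the TKO libraries were close to each other and under the lowest Cre library, which was replicate 3, while the highest was Cre replicate 4. The summed CPM of the list was 139, 134, 79.7 and 207 in Cre and 38.3 and 44.0 in TKO. The part of mesothelial content in the fall of Myrf was not tested.

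Endothelial genes differed between the TKO libraries. Of 15 general markers 13 were positive with a median of 0.69, which was 0.12 without TKO replicate 2. Cdh5, the cadherin of endothelial junctions, was at 29.1, 74.5, 52.2 and 77.9 CPM in Cre and at 70.4 and 179 CPM in TKO (log2 1.10 ± 0.45, adjusted p = 0.343), so that TKO replicate 1 was inside the Cre range. Markers of capillary endothelium, which fat and muscle are rich in, were above Cre in both: all 8 were positive, 7 were separated higher, none was called, and the median of 1.4998 was 0.81 without TKO replicate 2. Gpihbp1, the anchor that holds LPL in capillaries, was at 20.7, 45.1, 27.7 and 48.4 CPM in Cre and at 51.8 and 171 CPM in TKO (log2 1.65 ± 0.48, adjusted p = 0.242). Cd36, the fatty acid receptor that fat cells share, was at 165, 344, 252 and 389 CPM in Cre and at 576 and 906 CPM in TKO (log2 1.37 ± 0.33, adjusted p = 0.203). Some of the 8 markers, Cd36 among them, are also counted in the lists of fat genes, so these lists are not independent. Of 6 lymphatic markers 1 was positive (median −0.31, −0.80 without TKO replicate 1, 0.00 without replicate 2) and none was separated. Sympathetic neuron genes were all positive, 12 of 12, with a median of 0.59 and no separated gene, and the median was 0.03 without TKO replicate 2.

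The median of T cell genes rested on TKO replicate 2. T cell markers had a median of 1.86, which became −0.14 without that library. Of 16 tested, 16 were positive, none was called and 1 was separated higher, the T cell receptor gene Trbc2 (log2 4.03). The summed CPM of the markers was 19.8, 16.8, 12.3 and 23.8 in Cre and 17.9 and 172 in TKO. The sum of TKO replicate 1 was thus inside the Cre range. In replicate 2 the excess went with the genes of developing T cells, a list chosen after their values were seen: Cd8a was at 16.3 CPM against 0.185 CPM in TKO replicate 1, the transcription factor Tcf7 at 31.6 against 1.67 CPM, and Prss16, a protease of thymic epithelium, at 3.95 against 0.0371 CPM. Foxn1, the defining factor of thymic epithelium, had 0 counts in all 6. Some members of the same list were separated higher, so TKO replicate 1 was above Cre too. These were Cd1d1 (log2 0.91), and Themis and Psmb11, both too low for the filter. The summed CPM of that list was 29.4, 34.8, 29.5 and 47.9 in Cre and 55.8 and 198 in TKO. Its mean log2 CPM was 1.16, 0.83, 0.76 and 0.80 in Cre and 0.69 and 4.05 in TKO. Cd4, which marks the helper T cells in the study's title, was at 2.91, 3.63, 1.58 and 1.94 CPM in Cre and at 3.48 and 10.9 CPM in TKO (log2 1.52 ± 0.48, adjusted p = 0.260; 0.47 without TKO replicate 2).

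Antibody genes lay higher in both TKO libraries. Igj was at 5.67, 4.43, 3.89 and 9.07 CPM in Cre and at 36.3 and 48.9 CPM in TKO (log2 2.88 ± 0.31, adjusted p = 0.0645). Igkc, the kappa light chain constant gene, was at 13.2, 8.68, 7.84 and 23.6 CPM in Cre and at 73.8 and 216 CPM in TKO (log2 3.44 ± 0.52, adjusted p = 0.102). Mzb1, a chaperone of antibody-secreting cells, was at 0.217, 0.0665, 0.0350 and 0.162 CPM in Cre and at 0.630 and 1.84 CPM in TKO (log2 3.29 ± 0.69, adjusted p = 0.166). All 3 are genes of plasma cells, and each was separated with TKO replicate 2 the higher. In Cre replicates 2 and 3, however, Mzb1 was under the level of 3 counts (0.0998 and 0.105 CPM), so the size of its fold is uncertain. In the whole list of 10 tested genes 10 were positive, 6 were separated higher and the median was 1.87 (0.52 without TKO replicate 2).

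Of 20 chemokine and cytokine genes 16 were positive, 3 were separated higher and none was called. Their median was 0.32 (0.42 without TKO replicate 1, 0.19 without replicate 2). Of 7 neutrophil and monocyte genes 7 were positive, with a median of 1.05 that was −0.08 without TKO replicate 2. Of 12 macrophage markers 3 were positive and 2 separated lower (median −0.20, −0.35 without TKO replicate 1, −0.09 without replicate 2). Those 2 were Mrc1, at 261, 242, 283 and 234 CPM in Cre and at 205 and 183 CPM in TKO (log2 −0.40 ± 0.12, adjusted p = 0.250), and Folr2 (−0.74 ± 0.25, 0.281), both markers of resident tissue macrophages. Interferon response genes (−0.03, 7 of 15 positive) and MHC class II genes (0.34, 7 of 8 positive) held no separated gene. In the IL-9 and type 2 list 16 of 20 genes were tested, 9 were positive and the median was 0.06. Stat3, which carries the IL-9 signal among others, was at 168, 178, 164 and 143 CPM in Cre and at 137 and 134 CPM in TKO (log2 −0.27 ± 0.11, adjusted p = 0.353), and Irf4, which IL-9-producing T cells need, was at 7.38, 7.55, 7.70 and 5.21 CPM in Cre and at 9.97 and 13.1 CPM in TKO (log2 0.73 ± 0.21, adjusted p = 0.239). Il10, a dampening cytokine that plasma cells can also make, was at 0.186, 0.233, 0.140 and 0.270 CPM in Cre and at 0.704 and 2.21 CPM in TKO (log2 2.78 ± 0.54, adjusted p = 0.152). The Cre values of Il10 were near the level of 3 counts (0.0930, 0.0998, 0.105 and 0.0809 CPM), so the size of its fold is uncertain. Of 16 proliferation genes 13 were positive and 9 were separated higher, with a median of 0.52, and Mki67 was at 5.08, 6.92, 7.04 and 7.66 CPM in Cre and at 11.0 and 17.3 CPM in TKO (log2 1.09 ± 0.23, adjusted p = 0.173).

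Lists of tissue carried along and of handling held no separated gene. Cardiac genes had a median of −2.10 (−0.95 without Cre replicate 3), skeletal muscle genes −0.95 (0.13 without it), erythrocyte genes −0.54, circadian clock genes 0.04 and immediate early genes −0.06. The last 3 turned on which TKO library was left out: with replicate 1 or with replicate 2 left out the medians were 0.04 and −1.58 for erythrocyte, −0.57 and 0.40 for clock and 0.64 and −1.50 for immediate early genes. The mean log2 CPM of immediate early genes was 7.94, 6.48, 6.49 and 5.47 in Cre and 5.52 and 7.62 in TKO, and Arntl, a core clock gene, was at 10.4, 8.98, 30.8 and 63.2 CPM in Cre and at 5.38 and 36.0 CPM in TKO.

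Whether these effects were particular to stripped aorta was tested as a difference between the genotype effect there and in non-stripped aorta. Of 17501 genes 1 passed (0.00571%), against 3178 (18.2%) with an unadjusted p under 0.05 and 878 called by DESeq2. That gene was Pdpr, which encodes a regulator of pyruvate dehydrogenase phosphatase. In stripped aorta Pdpr was at 3.44, 2.76, 3.78 and 2.94 CPM in Cre and at 3.00 and 2.64 CPM in TKO (log2 −0.19 ± 0.24), and in non-stripped aorta at 16.4, 21.5 and 22.0 CPM in Cre and at 59.5, 65.7 and 73.8 CPM in TKO (1.73 ± 0.14). The difference of −1.92 ± 0.22 had an adjusted p of 0.0352. The 4 genes called in stripped aorta did not pass this test: Unc5b differed by −0.79 ± 0.16 (adjusted p = 0.0863), Myrf by −0.89 ± 0.24 (0.110), Slc7a11 by 2.49 ± 1.29 (0.331) and Gm14150 by 1.70 ± 1.41 (0.558). Others with the smallest p for a difference were Alpl (−1.58 ± 0.23, adjusted p = 0.0542), Adtrp (1.99 ± 0.30, 0.0542) and Cib2 (1.77 ± 0.26, 0.0542), which lay on the same side in the stripped comparison, and the kinase gene Dclk1 (−1.17 ± 0.18, 0.0542). In non-stripped aorta Unc5b was at 23.3, 26.9 and 21.4 CPM in Cre and at 18.6, 20.3 and 16.2 CPM in TKO, and Myrf at 6.52, 6.97 and 9.30 CPM in Cre and at 4.62, 6.00 and 4.30 CPM in TKO, so that all 3 TKO libraries lay below every Cre library there too (−0.37 ± 0.13, adjusted p = 0.190, and −0.61 ± 0.20, 0.173). Slc7a11 and Gm14150 were each highest in non-stripped TKO replicate 1, at 0.703 and 1.66 CPM, and at 0 to 0.235 CPM in the other 5 libraries.

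The fat and mitochondrial lists had medians under 0 in non-stripped aorta, where fat genes made up more of the RNA, except for the fasting list at 0.15. Fatty acid oxidation was at 0.75 in stripped and at −0.16 in non-stripped aorta, with the difference positive for 21 of 22 genes. Lipolysis was at 1.22 and −0.07, and oxidative phosphorylation at 0.46 and −0.22, with the difference positive for 35 of 35 genes, beside 51.3% of all genes. No single gene of these lists passed the test of the difference. Nearest was Pnpla2, at 2646, 2561 and 2138 CPM in Cre and 2376, 2102 and 2018 CPM in TKO of non-stripped aorta (1.55 ± 0.21, adjusted p = 0.0542). Mesothelial genes had a difference below 0 in 11 of 11 cases, with a median of −0.42 in non-stripped aorta. Contractile genes were at −0.56 and −0.65, and the median of their differences was −0.07. In non-stripped aorta 6 of 19 were positive, against none of 20 in stripped aorta. Tpm1, a tropomyosin, was at −0.74 ± 0.22 in stripped and at 2.08 ± 0.43 in non-stripped aorta, and the difference of −2.82 ± 0.56 had an adjusted p of 0.0863. The skeletal and cardiac muscle lists also had medians above 0 in non-stripped aorta, 3.22 (15 of 15 positive) and 1.61 (8 of 9 positive). In both lists the difference was positive for 0 of 11 genes. The part of striated muscle RNA in the value of Tpm1 was not tested.

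**Figure D5:**
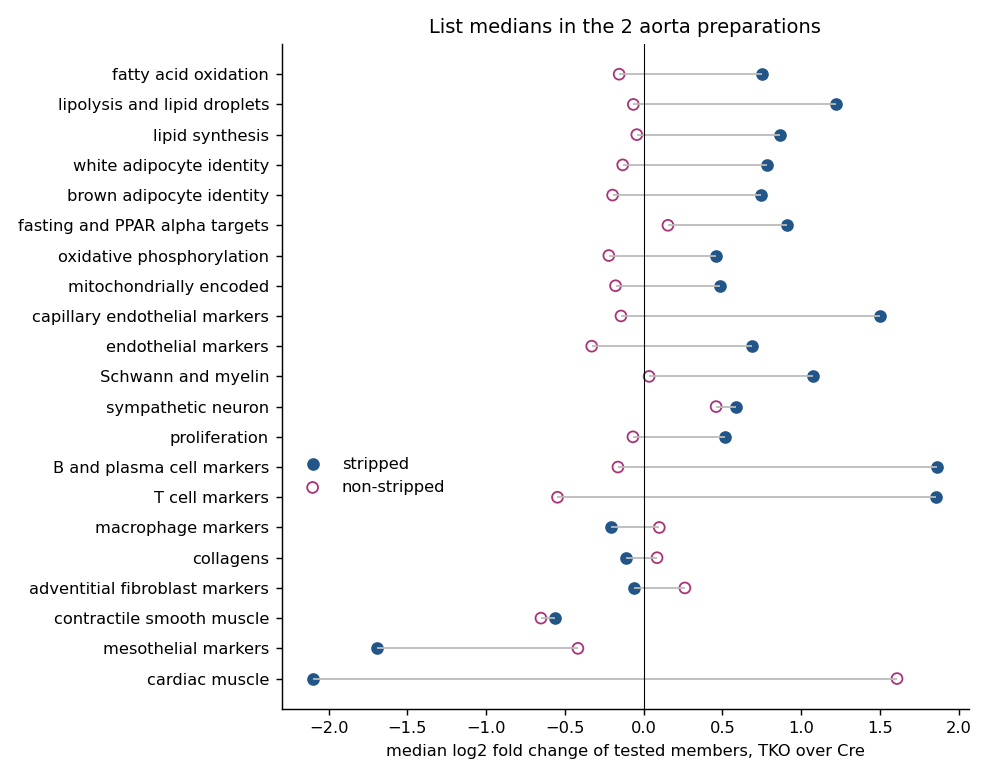
For 21 gene lists, the median log2 fold change of the tested members, TKO over Cre, in stripped aorta (filled) and in non-stripped aorta (open). The fat, fatty acid oxidation and capillary lists lie right of 0 in stripped aorta only, and the contractile median lies near −0.6 in both.

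Conversely, of 13 genes called by edgeR in non-stripped aorta and named there (18 of 15162 tested were called, 0.119%), 12 were tested in stripped aorta. None passed, 9 were negative, 2 were separated higher and 5 lower. Rpl30, a ribosomal protein gene, was at 486, 404, 405 and 431 CPM in Cre and at 262 and 262 CPM in TKO (log2 −0.72 ± 0.12, adjusted p = 0.117). Polr2k, for a small subunit common to the RNA polymerases, was at 20.6, 25.9, 24.8 and 26.9 CPM in Cre and at 11.4 and 14.4 CPM in TKO (log2 −0.93 ± 0.16, adjusted p = 0.117). Cpq was at 181, 166, 177 and 158 CPM in Cre and at 95.7 and 71.9 CPM in TKO (log2 −1.02 ± 0.14, adjusted p = 0.0962). All 3 were lower in both TKO libraries, by an amount that did not differ past the threshold from non-stripped aorta (adjusted p of the difference 0.111, 0.999 and 0.361). H2-T24, a non-classical class I gene, was likewise at 11.7, 13.4, 21.1 and 20.2 CPM in Cre and at 5.04 and 7.66 CPM in TKO (log2 −1.39 ± 0.31, adjusted p = 0.191). Eno1b, an enolase copy whose reads may be shared with its parent gene, was at 0.713, 0.865, 0.770 and 1.19 CPM in Cre, at 1.22 CPM in TKO replicate 1 and at 44.0 CPM in TKO replicate 2, against 322 to 713 CPM in the 3 non-stripped TKO libraries. The 2 stripped TKO libraries thus differed in a gene that was high in every non-stripped TKO library.

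Rpl30, Polr2k and Cpq lie on chromosome 15 within 10 Mb of Klf10, at chr15:34440505-34443640, chr15:36174010-36177010 and chr15:33083129-33594552. The window was therefore looked at as a whole, after these values had been seen. Of 59 tested genes in it, 17 (28.8%) were separated lower and 12 (20.3%) separated higher in stripped TKO aorta, beside 11.7% and 12.0% of the 15853 tested genes with a position. Their median log2 fold change was −0.06. Both directions were thus more frequent among the neighbours of Klf10 than among all genes. The 17 include Rpl30, Polr2k and Cpq, the genes that led to the window. No test was made of these shares.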

How the data were processed

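Raw read counts per gene symbol were deposited by the authors in separate tables for stripped and non-stripped aorta. Per the submitters' processing notes, Trimmomatic 0.36, STAR 2.5.2b, Subread 1.5.2 with featureCounts and GRCm38 were used, with roles, annotation and strand setting not given in the sources used here. In the table of stripped aorta, 1 column matched no label and was not used, 27 symbols read as dates, and a row with a blank name was left out. The TKO columns are named from a number series that the Cre columns do not share, and the unused column falls in it. What the series stand for is not given, so series and genotype cannot be told apart. Of 42375 rows, 16688 passed edgeR's filterByExpr (minimum count 10). Counts were scaled by TMM and fitted with edgeR 4.0.16 (quasi-likelihood test, R 4.3.3) over the 4 Cre and 2 TKO libraries, with Benjamini-Hochberg adjustment at 0.05. The difference from non-stripped aorta was a contrast over 4 group means. DESeq2 1.42.0, RLE scaling, other filters, a joint fit and fits without single libraries were alternatives, and leaving out Cre replicate 3 with TKO replicate 2 was added after seeing the data. The fits were also run on simulated counts with the same dispersion for every gene and no outlying library. Because the real libraries differ in both respects, that run does not show how the fits perform on them.

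The comparison and the gene lists were chosen with earlier results of these data known, so lists are described by counts and medians and were not tested. Named were Klf10, Il9 and Il9r, every called gene, up to 10 more genes per direction with the smallest p, a mean of at least 1 CPM and separated groups (predicted genes and antigen receptor segments left out), up to 6 genes of each list by p, and up to 5 per direction for the difference. Other list members, such as Acta2, Col1a1, Cpt1a and Zic1, were named for their role after their values were seen. Gene positions are from GENCODE vM21 and promoter sequences from RefSeq (GRCm38.p6), where 2 of the 4 called genes had an entry. Intervals and limits from counts cover counting error only.
A few members of the gene lists are not reported here by name.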

Additional observations from a re-analysis of the deposited data

Results flagged for a closer look

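A library far from the other 3 was looked for among the 4 Cre libraries in 185 gene and list levels, and 17 were found. Chance gives about 1 in 20 for independent, normally distributed levels. These levels share libraries, and lists share genes with single entries, so the 17 cannot be set against that rate. Cre replicate 1 was the low library for Ucp1 (21.9 CPM, the others 97.3 to 109.6), Pnpla2 (153, against 201 to 209) and Cidec (69.3, against 103 to 106), and for the mean log2 CPM of brown fat genes (3.34, against 4.01 to 4.12), fatty acid oxidation genes (5.79, against 6.22 to 6.25) and endothelial markers (4.61, against 5.51 to 5.65). It was the high library for adventitial fibroblast markers (10.00, against 9.64 to 9.69), Rag1 (1.21 CPM, against 0.210 to 0.366) and Tcf7 (2.91 CPM, against 2.10 to 2.24).

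Cre replicate 4 was the high library for the Schwann cell gene Cdh19 (17.6 CPM, against 10.6 to 11.0) and for Hilpda (11.6 CPM, against 9.21 to 9.30). It was the low library for Irf4 (5.21 CPM, against 7.38 to 7.70) and Dntt (0.0540 CPM, against 0.420 to 0.466). Cre replicate 3 was the high library for Nppa (2549 CPM, against 0.324 to 3.99) and Pdk4 (104 CPM, against 48.4 to 55.0), and the low one for other matrix and crosslinking genes (8.15, against 8.26 to 8.27). Cre replicate 2 was the high library for Hey1 (16.8 CPM, against 12.1 to 12.2). The 2 TKO libraries are too few for this check.

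The effect of genotype on Pdpr differed between the preparations by −1.92 on the log2 scale, in the test of that difference over all genes.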

How the results depend on the processing

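The count of 4 called genes was 4 with RLE scaling, 5 with a filter of 1 CPM in every library of 1 group, 64 with no filter, 138 in the joint fit and 536 with DESeq2, each including the 4. Without single libraries it ran from 0 (Cre replicate 2 or 3) to 30 (TKO replicate 1), and leaving out Cre replicate 3 and TKO replicate 2 together gave 4 other genes. The count for the difference between preparations was 1 as reported and with RLE scaling, 7 with the stricter filter, 159 with no filter, 878 with DESeq2, and 0 to 242 without single libraries. RLE scaling moved the median of all genes by −0.0026. The causes of these changes were not tested.

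No sign changed with scaling, filter, tool or joint fit among the genes named, and the 4 called genes kept theirs throughout. Of 1659 values of named genes under the alternatives 160 crossed the threshold, 19 lost it, and of 540 list medians 75 moved beyond the spread between Cre libraries. Leaving out libraries turned the sign of genes that were not called. Without both Cre replicate 3 and TKO replicate 2 the log2 fold change was −0.12 for Acaca, −0.60 for Acly, −0.32 for Agtr1a, −2.04 for Cd8a, 0.067 for Col3a1, −2.03 for Dntt, −0.25 for Fasn, 0.83 for Nppa, −7.31 for Rag1, 0.18 for Rgs5 and −0.53 for Tcf7. Without single libraries it ran from −0.046 to 0.66 for Acaca, −0.50 to 0.52 for Acly, −0.44 to 0.49 for Agtr1a, −2.40 to 0.34 for Arntl, −2.02 to 4.40 for Cd8a, −0.52 to 0.52 for Col1a1, −0.39 to 0.16 for Col3a1, −2.14 to 5.67 for Dntt, −0.20 to 0.56 for Ebf2, −0.15 to 0.94 for Fasn, −0.60 to 0.62 for Gpam, −7.80 to 0.53 for Nppa, −7.02 to 5.07 for Rag1, −0.083 to 0.11 for Rgs5, −0.29 to 0.19 for Srebf1, −0.51 to 3.73 for Tcf7 and −0.59 to 0.20 for Unc5c.

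No paired analysis was possible because the labels of the stripped samples give no pairing or litter of animals. They carry no replicate numbers either, and those used here follow the order of the samples. With 2 TKO libraries, 1 of them with thymocyte RNA, no value can be checked against a further TKO library, and genes under about 3 counts cannot be compared at this depth.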
